A study of Macaca mulatta with 12 samples.

Results

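DUSP1 and the immediate early genes are described here in the dorsal raphe of the rhesus monkey, a midbrain nucleus whose serotonin neurons project widely to the forebrain. The members were all probe sets named DUSP1, FOS, FOSB, JUN, JUNB, EGR1, NR4A1, ARC, IER2 or BTG2 in the array's probe-to-gene table. This gave 9 of 52865 probe sets, for 7 of the 10 genes and of the 14132 gene symbols in the table, which pairs no probe set with FOSB, JUN or EGR1 alone. DUSP1 was chosen by its measured values, since it had been among the 10 lower genes named for estrogen plus progesterone against placebo in these same arrays. Its values in that comparison are therefore given as a description with no test.

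Each of 12 arrays held total RNA from the dorsal raphe block of 1 female monkey, with 3 monkeys in each of 4 groups. The groups had received estrogen plus progesterone, estrogen, progesterone, or placebo, from Silastic capsules of crystalline steroid placed under the skin for 1 month. The code OVX, taken to mean ovariectomized, stands in the placebo titles alone, and the labels do not say whether the hormone groups were operated on too. The progesterone group is coded EP in its titles and P in its descriptions, and is treated here as having received progesterone alone.

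Immediate early genes are transcribed within minutes of a stimulus from factors already present in the cell, without new protein synthesis. In neurons they follow synaptic activity, calcium entry and signalling through the MAP kinases, and FOS staining is widely used to mark recently active neurons. FOS and JUNB form AP-1 transcription factors, NR4A1 is an orphan nuclear receptor, ARC is a postsynaptic protein of receptor trafficking, and IER2 and BTG2 are nuclear regulators of growth. DUSP1 is itself rapidly induced and removes phosphate from the MAP kinases ERK, JNK and p38, which makes it a feedback inhibitor of the pathway that induces it. Glucocorticoids also induce DUSP1.

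Values are log2 intensity of a probe set after quantile normalization, so a difference of 1 is a doubling, and levels were not compared between probe sets. Of the 9 probe sets, 5 had a mean above the detection filter and were tested, 1 each of DUSP1, FOS, JUNB, NR4A1 and IER2. The filter was the median probe set, at log2 6.31 averaged over all 12 arrays. The other 4, the second probe sets of DUSP1 and NR4A1 and those of ARC and BTG2, had means of 4.95 to 5.93 and are given by their values only. The 23 control probe sets for sequences that are not of the monkey averaged 2.31 to 6.41 with a median of 3.60, so these 4 lay close to background.

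The serotonin neuron markers SLC18A2 and FEV averaged log2 10.12 and 9.47, and TPH2, the brain enzyme of serotonin synthesis, averaged 7.31 and was lowest at 4.66. The markers HTR1A and LMX1B lay below the filter. Array medians ran from intensity 71.1 to 98.7. A first principal component with 23.5% of the variance put the first arrays of estrogen plus progesterone, estrogen and placebo at -51.6 to -44.0, and the other 9 arrays at -1.64 to 29.0. Differences from placebo without these 3 arrays are given for DUSP1 and NR4A1, and for other genes where they weighed on a value named here. A second component, with 17.2% of the variance, put the progesterone arrays at -54.5 to -14.1 and all others at 0.50 to 20.4.

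On its brighter probe set DUSP1 was lower in every hormone-treated monkey than in every placebo monkey, which did not hold on its dimmer one. Its brighter probe set (MmuSTS.4085.1.S1_at) read 9.41, 8.90 and 9.01 with estrogen plus progesterone. It read 9.29, 9.23 and 9.40 with estrogen and 9.24, 9.29 and 9.35 with progesterone, against 9.77, 9.87 and 9.58 with placebo. The lowest placebo array thus stood above the highest of the 9 hormone arrays, the first array of estrogen plus progesterone. Placebo arrays lay above all 9 others for 1 of the 5 member probe sets, DUSP1, and for 0.265% of all tested probe sets. The placebo and estrogen plus progesterone arrays were used to choose DUSP1, so this count is a description with no test.

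The group means of the brighter DUSP1 probe set were 9.11 ± 0.27 with estrogen plus progesterone, 9.31 ± 0.09 with estrogen, 9.29 ± 0.05 with progesterone and 9.74 ± 0.15 with placebo (SD, n = 3 each). On the linear scale of the deposited values the mean intensity was 552 ± 84.1 with estrogen plus progesterone, 640 ± 59.1 with estrogen, 620 ± 3.84 with progesterone and 865 ± 81.1 with placebo. The difference of estrogen plus progesterone from placebo was -0.63 on the log2 scale (SE 0.16), a ratio of 0.644. Without the first arrays of the 3 groups that stood apart, it was -0.77. These values describe the contrast that put DUSP1 forward.

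The single hormones stood between these levels. The difference from placebo was -0.44 for estrogen and -0.45 for progesterone, with an SE of 0.16 for each, and -0.41 and -0.44 without the first arrays of the 3 groups that stood apart. All 3 differences share the same placebo arrays, and those 3 arrays helped to choose DUSP1, so no p or interval is given. Estrogen plus progesterone differed from estrogen by -0.20 and from progesterone by -0.18, with an SE of 0.16 for each. Its first array weighed on both, which were -0.35 and -0.33 without it, and its second array too, with -0.10 and -0.08. In the order of levels, with placebo highest and then estrogen, progesterone and estrogen plus progesterone, the 3 hormone groups overlapped.

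Estrogen and progesterone alone are the 6 arrays that the choice of DUSP1 did not use. Between them DUSP1 differed by 0.02 on the log2 scale (SE 0.16, 95% confidence interval -0.33 to 0.37, limma adjusted p = 0.987). The arrays of the 2 groups interleaved. With this number of monkeys, the interval leaves true differences from -0.33 to 0.37 compatible with the values, 0 among them.

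**Figure D1:**
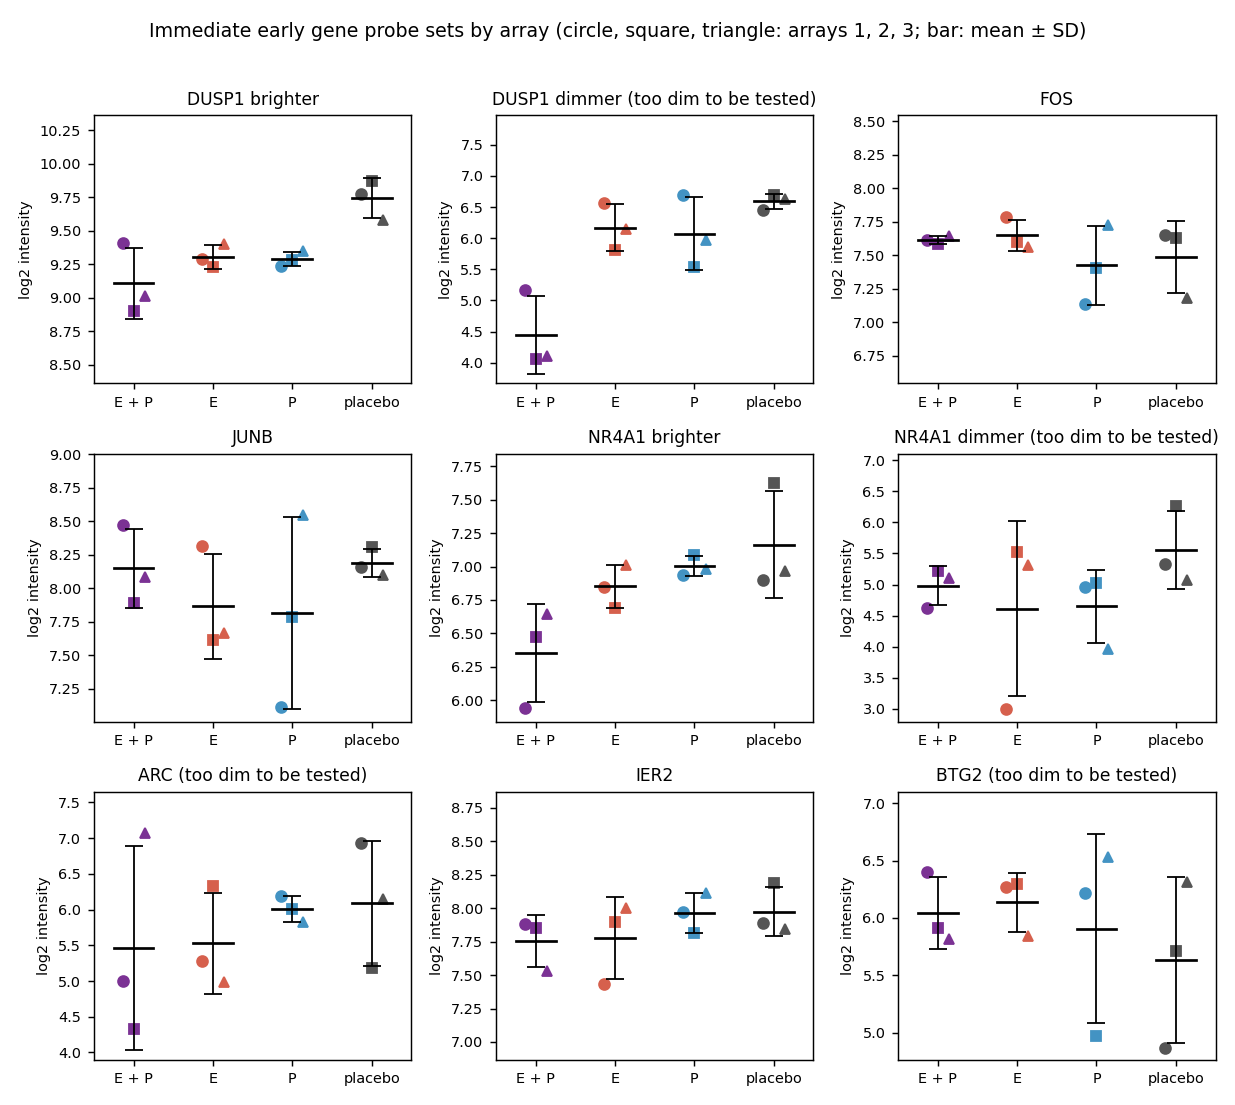
Log2 intensity of the 9 probe sets (y axes) in the 4 groups (x axes: E + P, estrogen plus progesterone; E, estrogen; P, progesterone; placebo), 3 monkeys per group as points, with the group mean and SD as bars. The placebo points lie above all others for the brighter DUSP1 probe set, and the estrogen plus progesterone points lie below all others for the dimmer DUSP1 and the brighter NR4A1 probe sets.

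The dimmer DUSP1 probe set (MmugDNA.24043.1.S1_at) gave a different order of groups. It read 5.16, 4.06 and 4.11 with estrogen plus progesterone, 6.56, 5.80 and 6.15 with estrogen and 6.70, 5.54 and 5.97 with progesterone, against 6.46, 6.69 and 6.62 with placebo. All 3 arrays of estrogen plus progesterone lay below the lowest of the other 9 arrays, at 5.54, and the single hormones overlapped placebo. The group means were 4.44 ± 0.62 with estrogen plus progesterone and 6.59 ± 0.12 with placebo (SD, n = 3 each).

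For this probe set the difference of estrogen plus progesterone from placebo was -2.15 (SE 0.36). The values of the estrogen plus progesterone arrays lay within the range of the controls for foreign sequences, and those of the placebo arrays just above it. With estrogen the difference from placebo was -0.42, but -0.23 without the second estrogen array and -0.69 without the first arrays of the 3 groups. With progesterone it was -0.52, but -0.84 without the first and -0.26 without the second progesterone array. Estrogen plus progesterone differed by -1.73 from estrogen and by -1.62 from progesterone. At these low intensities a log2 difference depends on the floor of the scale: with 16 intensity units added to every value, the 3 differences of estrogen plus progesterone, from placebo, estrogen and progesterone, were -1.55, -1.20 and -1.13. This is the second measure of a gene chosen on that contrast, so it has no test.

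The 2 DUSP1 probe sets had in common that estrogen plus progesterone was the lowest group and placebo the highest. They differed in where the single hormones stood, near estrogen plus progesterone on the brighter and near placebo on the dimmer. Across the 12 arrays the 2 probe sets correlated by r = 0.73, and by 0.51 after the group means were subtracted, given as a description. Whether they detect different transcript forms was not tested.

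**Figure D2:**
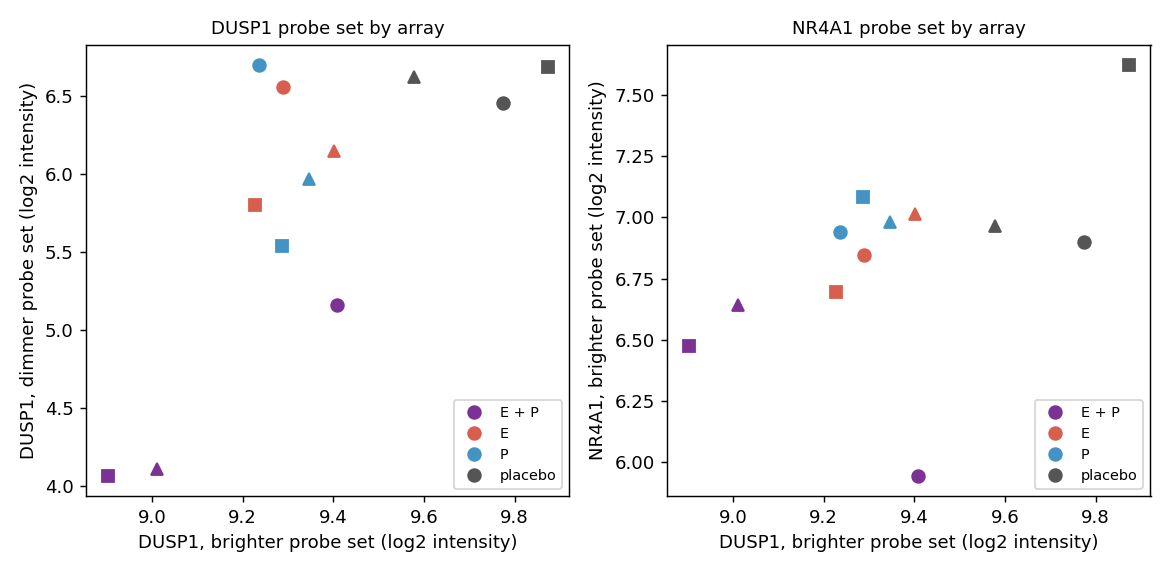
The dimmer DUSP1 probe set (left, y axis) and the brighter NR4A1 probe set (right, y axis) against the brighter DUSP1 probe set (x axes), all in log2 intensity, with 1 point per array and colours for the 4 groups (circle, square and triangle for arrays 1, 2 and 3). The first estrogen plus progesterone array (circle) has the highest brighter DUSP1 value of the hormone arrays, 9.41, and the lowest NR4A1 value of all, 5.95.

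NR4A1, the orphan nuclear receptor also called Nur77, was the other member in which all estrogen plus progesterone arrays lay below the placebo arrays. Its brighter probe set (MmugDNA.18685.1.S1_s_at) read 5.95, 6.47 and 6.64 with estrogen plus progesterone. It read 6.85, 6.69 and 7.01 with estrogen and 6.94, 7.08 and 6.98 with progesterone, against 6.90, 7.62 and 6.96 with placebo. The 3 arrays of estrogen plus progesterone lay below all 9 others, and the single hormones overlapped placebo. The first of these 3 arrays, at 5.95, was below the filter of 6.31. It and the group mean of 6.35 lay within the range of the controls for foreign sequences, which reached 6.41. Estrogen plus progesterone lay below all 9 others for 1 of the 5 member probe sets and for 0.614% of all tested probe sets.

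The group means of NR4A1 were 6.35 ± 0.36 with estrogen plus progesterone, 6.85 ± 0.16 with estrogen, 7.0 ± 0.07 with progesterone and 7.16 ± 0.40 with placebo (SD, n = 3 each). The difference of estrogen plus progesterone from placebo was -0.81 (SE 0.23, interval -1.30 to -0.31), a ratio of 0.572, and it did not pass the test over all probe sets (limma unadjusted p = 0.00403, adjusted p = 0.9988). It was -0.75 without the first arrays of the 3 groups that stood apart, and -0.58 without the second placebo array. Estrogen plus progesterone differed from progesterone by -0.65 (SE 0.23, limma adjusted p = 0.317) and from estrogen by -0.50 (SE 0.23, limma adjusted p = 0.9999). Neither single hormone differed from placebo past the threshold, with -0.31 for estrogen (limma adjusted p = 0.9997) and -0.16 for progesterone (limma adjusted p = 0.875). Without the second placebo array these were -0.08 and 0.07, and without the first arrays of the 3 groups -0.45 and -0.30.

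The suffix of this NR4A1 probe set marks probes that may match more than 1 transcript. The dimmer NR4A1 probe set (MmugDNA.18685.1.S1_at) read 4.62, 5.22 and 5.10 with estrogen plus progesterone, 2.99, 5.52 and 5.32 with estrogen and 4.96, 5.02 and 3.96 with progesterone, against 5.33, 6.27 and 5.07 with placebo. Here the progesterone arrays all lay below the placebo arrays, while those of estrogen plus progesterone and of estrogen overlapped them. The differences from placebo were -0.57, -0.95 and -0.91 for estrogen plus progesterone, estrogen and progesterone, each with an SE of 0.63. The 2 NR4A1 probe sets correlated by r = 0.30 across the 12 arrays.

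The AP-1 genes FOS and JUNB overlapped between all groups. FOS (MmugDNA.38565.1.S1_at) read 7.62, 7.58 and 7.64 with estrogen plus progesterone, 7.78, 7.60 and 7.56 with estrogen and 7.14, 7.40 and 7.73 with progesterone, against 7.65, 7.63 and 7.18 with placebo. The lowest values were the first progesterone and the third placebo array. FOS differed from placebo by 0.13 with estrogen plus progesterone, by 0.16 with estrogen and by -0.06 with progesterone (SE 0.18 each, limma adjusted p = 0.9988, 0.9997 and 0.949). Without the third placebo array the first 2 of these were -0.02 and 0.01, and without the first arrays of the 3 groups they were 0.22, 0.18 and 0.02.

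JUNB (MmugDNA.21723.1.S1_at), the partner of FOS in AP-1, read 8.47, 7.89 and 8.08 with estrogen plus progesterone, 8.31, 7.61 and 7.66 with estrogen and 7.11, 7.78 and 8.55 with progesterone, against 8.15, 8.31 and 8.10 with placebo. The progesterone group held both the lowest and the highest JUNB array of the series. JUNB differed from placebo by -0.04 with estrogen plus progesterone, by -0.32 with estrogen and by -0.37 with progesterone (SE 0.32 each, limma adjusted p = 0.9988, 0.9997 and 0.767). Leaving out 1 array moved the progesterone difference to -0.75 without the last and to -0.02 without the first of the 3 progesterone arrays, and the estrogen one to -0.55 without its first array and -0.20 without its second. Without the first arrays of the 3 groups JUNB differed by -0.22 with estrogen plus progesterone and by -0.58 with estrogen. An SE of this size leaves a change of the extent seen for DUSP1 unresolved.

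IER2 (MmugDNA.26855.1.S1_at) read 7.88, 7.85 and 7.53 with estrogen plus progesterone, 7.43, 7.90 and 8.0 with estrogen and 7.97, 7.81 and 8.11 with progesterone, against 7.89, 8.18 and 7.85 with placebo. All groups overlapped. IER2 differed from placebo by -0.22, -0.20 and -0.01 with estrogen plus progesterone, estrogen and progesterone (SE 0.19 each, limma adjusted p = 0.9988, 0.9997 and 0.993). Without the third estrogen plus progesterone array the first was -0.11, and -0.33 without the first arrays of the 3 groups. The estrogen difference was -0.07 without the first arrays of the 3 groups, -0.02 without the first and -0.31 without the third estrogen array.

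ARC and BTG2 were too dim to be tested. ARC (MmuSTS.2842.1.S1_at) read 5.0, 4.33 and 7.07 with estrogen plus progesterone, 5.27, 6.33 and 4.98 with estrogen and 6.19, 6.0 and 5.82 with progesterone, against 6.94, 5.18 and 6.15 with placebo. BTG2 (MmugDNA.6501.1.S1_at), a regulator of the cell cycle that p53 induces, read 6.40, 5.91 and 5.82 with estrogen plus progesterone, 6.27, 6.30 and 5.84 with estrogen and 6.22, 4.98 and 6.53 with progesterone, against 4.87, 5.71 and 6.32 with placebo. For both genes the arrays of 1 group spread more widely than the groups differed. The largest difference from placebo was -0.63 for ARC (SE 0.68, estrogen plus progesterone) and 0.50 for BTG2 (SE 0.44, estrogen). For ARC it was -1.43 without the third and -0.06 without the second estrogen plus progesterone array, and 0.04 without the first arrays of the 3 groups. For BTG2 it was 0.12 without the first and 0.84 without the third placebo array, and 0.05 without the first arrays of the 3 groups.

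**Figure D3:**
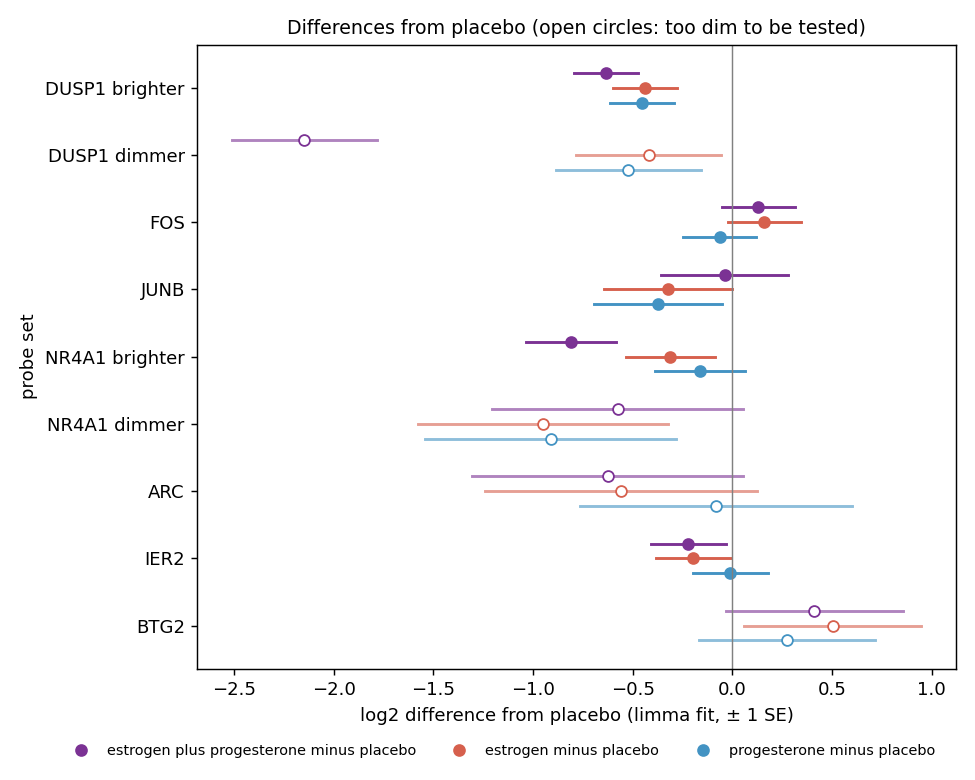
Log2 difference from placebo (x axis) of the 9 probe sets (y axis) for estrogen plus progesterone, estrogen and progesterone, as points with ± 1 SE of the limma fit; open circles mark probe sets too dim to be tested. The dimmer DUSP1 probe set has the lowest difference, -2.15 with estrogen plus progesterone, and the points of FOS, JUNB and IER2 lie between -0.37 and 0.16.

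None of the 4 tested members other than DUSP1 passed the adjusted threshold of 0.05 in any of the 3 comparisons with placebo. In estrogen plus progesterone against placebo limma called 0 of 4, beside 0% of all tested probe sets, and NR4A1 alone had an unadjusted p under 0.05. In estrogen against placebo it called 0 of 4, beside 0% of all, and 0 had an unadjusted p under 0.05. In progesterone against placebo it called 0 of 4, beside 0.133% of all, and 0 had an unadjusted p under 0.05. Among all 26383 tested probe sets, 1017, 699 and 2605 had an unadjusted p under 0.05 in these 3 comparisons.

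The comparisons between hormone groups also called 0 of 4 each. The share of all tested probe sets called was 0% for estrogen plus progesterone against estrogen, 0.0834% for estrogen plus progesterone against progesterone, and 0.133% for estrogen against progesterone. NR4A1 was the only one of the 4 with an unadjusted p under 0.05 in any of these, in the first 2 of them. A moderated F test over the 4 groups called 0 of 4, beside 0.0758% of all, with NR4A1 at an unadjusted p of 0.0215.

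By arrays that do not overlap, 2 of the 5 tested probe sets had all estrogen plus progesterone arrays below all placebo arrays, DUSP1 and NR4A1, beside 5.84% of all tested probe sets. For estrogen it was 1 of 5, DUSP1, beside 3.98%, and for progesterone 1 of 5, DUSP1, beside 7.86%. For DUSP1 these counts describe arrays that were used to choose it. None of the 5 had all hormone arrays above placebo.

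Whether the same monkeys were high for DUSP1 and for the other genes was examined over the 12 arrays with the brightest probe set of each gene. Subtracting the group means leaves out the contrast that chose DUSP1. DUSP1 then correlated with JUNB by 0.45 (exact permutation p = 0.0463, adjusted over 6 relations 0.266), with IER2 by 0.40 (exact permutation p = 0.261) and with FOS by 0.39 (exact permutation p = 0.0887). It correlated with NR4A1 by -0.17, with ARC by -0.25 and with BTG2 by 0.01. No relation passed the adjustment.

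Without that subtraction DUSP1 and NR4A1 correlated by r = 0.52 and rho = 0.48, a description with no test, since these levels hold the contrast that chose DUSP1. Without the 2 arrays farthest from the median of DUSP1, the first 2 placebo arrays, r was 0.23, so the relation rests on those arrays. The first estrogen plus progesterone array was the highest of the 3 in its group for DUSP1 and the lowest for NR4A1. It is also among the 3 arrays that stood apart on the first principal component. The second array lay below the third for both genes.

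FOS and JUNB were the pair that moved most alike, a pair picked out after the 21 pairs of the 7 genes had been viewed. Their r was 0.64 (permutation p = 0.0263), their rho 0.73 (permutation p = 0.00927), and their r on deviations from the group means 0.77 (exact permutation p = 0.0100). Adjusted over the 21 pairs these were 0.553, 0.195 and 0.211, so none passed. Without the 2 arrays farthest from the median of FOS, the first progesterone and the third placebo array, r was 0.65.

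Other immediate early genes, from a list chosen with earlier results of these data known, were measured for 35 of 47 symbols (older names included) by a tested probe set. Estrogen plus progesterone was lower than placebo in 24 and higher in 11, with a median difference of -0.05, while 52.8% of all 9305 named genes were lower, with a median of -0.01. Limma called 0 of them, and 0 had an unadjusted p under 0.05, beside 1017 of all 26383 tested probe sets. The lowest p values belonged to PLK3 (-0.42), a stress-induced kinase, IER5 (-0.37), ATF3 (0.38), a stress-induced transcription factor, and PER1 (0.25), a clock gene that glucocorticoids induce. PLK3 was -0.19 without the second placebo array, and without the first estrogen plus progesterone array IER5 was -0.23 and ATF3 0.21. Without the first arrays of the 3 groups ATF3 was 0.13 and IER5 -0.20. PER1 was 0.15 without the third estrogen plus progesterone array.

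With estrogen, 22 of these 35 genes were lower than placebo and 13 higher, with a median of -0.08, while 51.1% of all genes were lower, with a median of -0.01. Limma called 0, with 1 under an unadjusted p of 0.05, beside 699 of all 26383 tested probe sets. That 1 was MAFF (-0.68), a small MAF transcription factor. SPRY2 (0.32), an inhibitor of receptor tyrosine kinase signalling, BDNF (0.44), a neurotrophin, and NPAS4 (-0.36), a neuronal activity-dependent transcription factor, followed. SPRY2 was 0.18 without the second estrogen array, and NPAS4 was -0.19 without the second placebo array and -0.60 without the first estrogen array. Without the first arrays of the 3 groups MAFF was -0.42 and NPAS4 -0.75.

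With progesterone, 24 were lower and 11 higher, with a median of -0.19 against -0.04 over all genes, where 56.2% were lower. Limma called 0, and 8 had an unadjusted p under 0.05, beside 2605 of all 26383 tested probe sets. TOB1 (-0.61), an antiproliferative protein of the family of BTG2, had the lowest adjusted p of the list, 0.227. IER5L (-0.77) and JUND (-0.88), the AP-1 subunit with the most constant expression, were lower and PLK2 (0.45), a kinase induced by synaptic activity, was higher, none past the threshold.

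The other dual-specificity phosphatases, relatives of DUSP1, were measured for 9 of 15 symbols. Estrogen plus progesterone was lower than placebo in 4 and higher in 5, estrogen was lower in 5 and higher in 4, and progesterone was lower in 7 and higher in 2, or 44.4%, 55.6% and 77.8% lower, beside 52.8%, 51.1% and 56.2% of all genes. Limma called 0 in each, and 0, 1 and 0 had an unadjusted p under 0.05, beside 1017, 699 and 2605 of all 26383 tested probe sets. DUSP3, an atypical phosphatase of ERK and JNK, differed from placebo by -0.59 with estrogen plus progesterone and by -0.95 with estrogen (SE 0.39 each), and DUSP26 by -0.25 with progesterone (SE 0.13). With estrogen plus progesterone DUSP3 was -1.09 without the first of its arrays and -0.26 without the third, and -1.15 without the first arrays of the 3 groups. The median of the 9 was 0.11, -0.01 and -0.15 for estrogen plus progesterone, estrogen and progesterone.

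The MAP kinase cascade, which induces immediate early genes and which DUSP1 switches off, was measured for 22 of 33 symbols. It was higher than placebo in 14 of the 22 with estrogen plus progesterone, in 15 with estrogen and in 9 with progesterone, so that 36.4%, 31.8% and 59.1% were lower, beside 52.8%, 51.1% and 56.2% of all genes. Limma called 0 in each, with 3, 0 and 3 under an unadjusted p of 0.05, beside 1017, 699 and 2605 of all 26383 tested probe sets. MAPK3, which encodes ERK1, differed by 0.61 with estrogen plus progesterone (SE 0.21, limma unadjusted p = 0.0134, adjusted p = 0.9988). MAPK8, which encodes JNK1, differed by 0.87 with estrogen plus progesterone, 0.83 with estrogen and 1.12 with progesterone (SE 0.41 each, limma adjusted p = 0.9988, 0.9997 and 0.404). These rest on the first placebo array, without which they were 0.26, 0.22 and 0.51. Without the first arrays of the 3 groups they were 0.08, 0.27 and 0.52. MAPK10, the neuronal JNK3, differed by 0.41 with progesterone (SE 0.14, limma adjusted p = 0.348).

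The transcription regulators that act on immediate early gene promoters were measured for 20 of 27 symbols. They were lower than placebo in 12, 11 and 11 with estrogen plus progesterone, estrogen and progesterone, or 60.0%, 55.0% and 55.0%, beside 52.8%, 51.1% and 56.2% of all genes. Limma called 0 in each, with 0, 1 and 0 under an unadjusted p of 0.05, beside 1017, 699 and 2605 of all 26383 tested probe sets. CAMK4, a calcium-dependent kinase that activates CREB, differed by 0.74 with estrogen (SE 0.22, limma unadjusted p = 0.00651, adjusted p = 0.9997). EP300, a histone acetyltransferase and coactivator, differed by -0.33 with estrogen plus progesterone (SE 0.18), and CREM, a relative of CREB, by 0.50 with progesterone (SE 0.24), but by 0.31 without the second progesterone array.

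Genes induced by glucocorticoids, as DUSP1 is, were measured for 11 of 15 symbols, PER1 being in this list and in that of immediate early genes. They were higher than placebo in 8, 6 and 8 with estrogen plus progesterone, estrogen and progesterone, so that 27.3%, 45.5% and 27.3% were lower, beside 52.8%, 51.1% and 56.2% of all genes. Limma called 0 in each, with 0, 0 and 1 under an unadjusted p of 0.05, beside 1017, 699 and 2605 of all 26383 tested probe sets. CEBPD, a transcription factor of the acute phase response, differed by 0.40, 0.22 and 0.68 (SE 0.24 each, limma adjusted p = 0.9988, 0.9997 and 0.399), and ZBTB16, a zinc finger repressor, by 0.51 with estrogen plus progesterone (SE 0.24). Without the first placebo array ZBTB16 was 0.30. CEBPD with estrogen was 0.06 without the second and 0.45 without the first placebo array, and with estrogen plus progesterone 0.24 and 0.63. Without the first arrays of the 3 groups ZBTB16 was 0.31 and CEBPD with estrogen 0.59. The list medians were 0.12, 0.03 and 0.09. The part of glucocorticoids in the DUSP1 values was not tested.

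**Figure D4:**
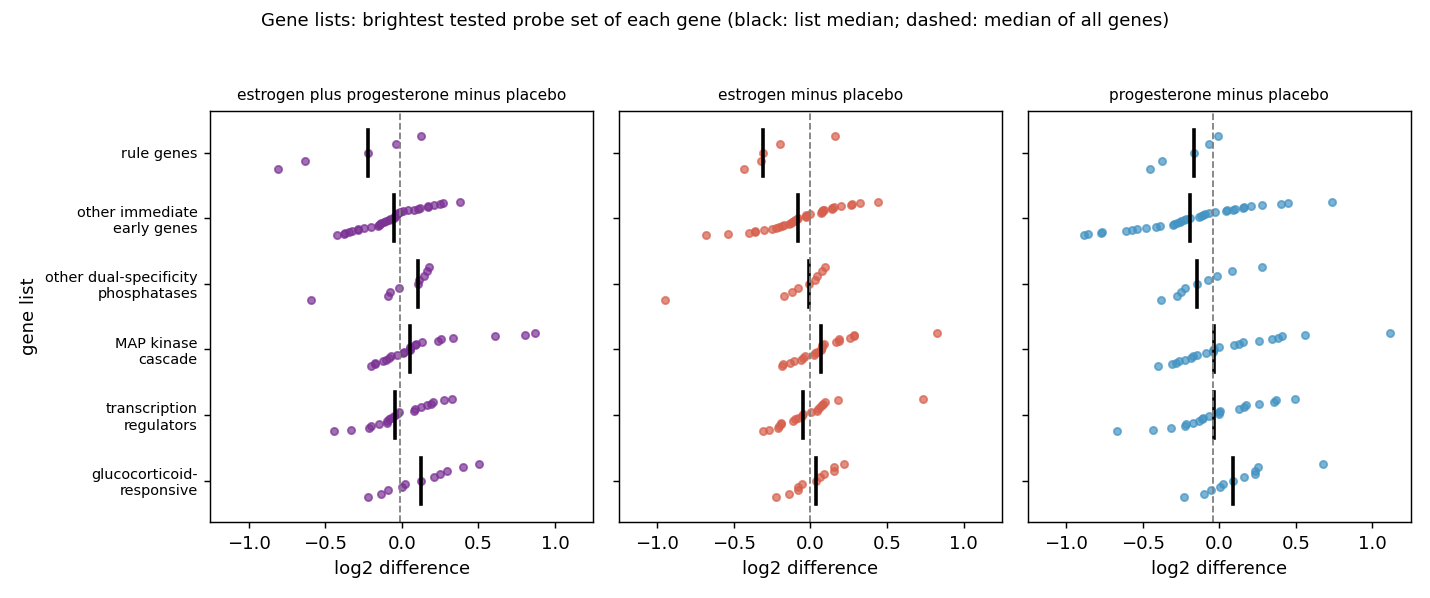
Log2 difference from placebo (x axes) of each gene's brightest tested probe set in 6 gene lists (y axis), for estrogen plus progesterone (left), estrogen (middle) and progesterone (right); black bars are list medians and the dashed line is the median of all named genes. The medians of the other immediate early genes are -0.05, -0.08 and -0.19, and those of the glucocorticoid-responsive genes lie above 0 in all 3 panels.

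In tissue blocks, fewer cells of a type and less RNA per cell cannot be told apart, so markers were summed as intensity beside these results. The sum of 11 microglia markers was 4315 to 4678 with estrogen plus progesterone and 4577 to 6157 with placebo, with 10 of the 11 above the filter and TMEM119 below it. Of these 10, 7 were lower and 3 higher with estrogen plus progesterone, beside 52.8% of all named genes lower. Their median was -0.13, with P2RY12 the lowest at -0.83. The sum of 7 of 11 endothelial and mural markers was 955 to 1192 with estrogen plus progesterone and 999 to 1549 with placebo, with VWF, FLT1 and KDR below the filter. The sum of the 6 astrocyte markers with a probe set, of 8 listed, was 24657 to 26040 with estrogen plus progesterone and 18962 to 21578 with placebo. That of 5 of 10 neuron markers was 18228 to 19585 with estrogen plus progesterone and 16174 to 17041 with placebo. That of 6 of 10 oligodendrocyte markers was 21911 to 27144 with estrogen plus progesterone and 19230 to 21806 with placebo. These 3 sums did not overlap between the 2 groups, while those of serotonin neuron, microglia, endothelial, blood, ependymal and cerebellar markers did. On the normalized log2 scale the same markers differed little, with a median of 0.04 for the 6 astrocyte markers (GFAP 0.01, SLC1A2 1.21), 0.04 for the 5 neuron markers and -0.07 for the 6 oligodendrocyte markers, of which 4 were lower.

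The serotonin neuron sum, over 8 of 11 markers, was 2231 to 2864 with progesterone and 2886 to 4139 with placebo, without overlap. All 6 serotonin neuron markers above the filter were lower with progesterone, beside 56.2% of all named genes, with a median of -0.46 against -0.04. Limma called 0 of the 6 (lowest adjusted p = 0.537), beside 0.133% of all tested probe sets. With estrogen it was 3072 to 4446 and with estrogen plus progesterone 2923 to 3677, and both overlapped placebo. The part of these markers in the DUSP1 and NR4A1 values was not tested.

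A common check of RNA quality, the difference between 3′ and 5′ probe sets of GAPDH, was 0.34 to 1.11 with estrogen plus progesterone and 0.42 to 0.50 with placebo. For EF1A it was -0.08 to 0.65 with estrogen plus progesterone, 0.12 to 0.74 with estrogen, -0.37 to -0.31 with progesterone and -0.03 to 0.07 with placebo. The progesterone arrays were thus apart from all others in the EF1A ratio. For actin it was 0.48 to 0.63 with estrogen plus progesterone and 0.52 to 0.90 with estrogen. With progesterone it was 0.66 to 1.23, above the placebo arrays at 0.11 to 0.63, which the other hormone groups overlapped. The part of RNA quality in the values of the members was not tested.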

How the data were processed

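Each deposited value is the linear intensity of 1 probe set on the rhesus Affymetrix array. The authors had brought all arrays to 1 level, with a mean of 200.0 after the lowest and highest 2% were removed. Their software was not given in the sources used here. Per the labels, RNA was extracted with Trizol and RNeasy columns and labelled with biotin by an Enzo kit.

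From 52865 probe sets, 99 controls were removed, and values below the 5th percentile were raised to it (intensity 4.96), log2 transformed and quantile normalized, since array medians spanned 6.15 to 6.62. The 26383 probe sets at or above the median mean were fitted with limma 3.58.1 in R 4.3.3 (lmFit and eBayes, 1 mean per group over 12 arrays, 8 residual and 3.54 prior degrees of freedom), two-sided, with Benjamini-Hochberg adjustment over all tested and a threshold of 0.05. The script was tested on simulated data. Each array is 1 monkey, so p values measure the spread between monkeys. Of 52766 probe sets, 24956 had 1 symbol in the probe-to-gene table, 361 several and 27449 none; 24616 of the first matched a RefSeq gene ID. A gene with several probe sets is taken by its brightest in lists and correlations.

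The members, gene lists and tests were chosen with earlier results of these data known. Named were all probe sets of the 10 genes, up to 4 genes of each list with the lowest p in a comparison with placebo, and the 5 genes most like DUSP1 on each of 2 scales. Correlations used permutation tests (100000 resamples, or all 1296 orders within groups) in Python 3.11.15 with scipy 1.17.1; figures used matplotlib 3.10.9. Deviations of same-numbered arrays correlated by 0.103 to 0.274 between estrogen plus progesterone and placebo. Between estrogen plus progesterone and estrogen it was 0.142 to 0.507, so both ranges lay above 0.1. Between estrogen and placebo it was 0.024 to 0.277, and in comparisons with progesterone -0.26 to 0.03. Different numbers matched too, with 0.267 for the second estrogen plus progesterone and the third estrogen array. Arrays were not paired by number in the reported fit, which has no block. Alternatives were the floor, normalization, filter, prior, block and arrays left out; those for list genes were added after seeing the data. Sequences and genomic positions were not used here.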

Additional observations from a re-analysis of the deposited data

How the results depend on the processing

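Another floor, normalization, filter or prior, leaving out each array in turn, leaving out the first arrays of 3 groups, and the replicate block gave 789 values for 38 results. In none was a member probe set called. Of the 624 values of differences 601 kept their sign, and the 23 that turned were 12 of tested differences and 11 of the dimmer DUSP1, ARC and BTG2 probe sets, which had no test. Another filter or prior and the replicate block use the same values and group means and cannot change a difference. Part of the 601 was thus fixed in advance. The DUSP1 difference of estrogen plus progesterone from placebo ran from -0.79 to -0.53, that of estrogen from -0.52 to -0.37 and that of progesterone from -0.58 to -0.39. The replicate block pairs same-numbered arrays. Every group holds the same array numbers, so the block leaves each difference as it was by construction, here -0.63 for estrogen plus progesterone. Only the SE and p could move with it, and no call changed. Estrogen minus progesterone for DUSP1 ran from -0.031 (without the third estrogen array) to 0.055 with arrays left out, was 0.18 with median alignment and -0.01 without the first progesterone array. FOS with estrogen plus progesterone ran from -0.025 (without the third placebo array) to 0.21, and with progesterone from -0.22 to 0.079 (without the first progesterone array), with 0.02 and 0.01 without the first and the second placebo array and 0.020 without the first arrays of 3 groups. JUNB with estrogen plus progesterone ran from -0.20 to 0.091 (without its second array), with 0.02 without the second placebo array. With progesterone, NR4A1 ran from -0.29 to 0.068 and IER2 from -0.084 to 0.10, both highest without the second placebo array, with IER2 at 0.07 without the second progesterone array. The list genes were refitted with arrays left out after the data had been seen. Of the 7 genes, 5 were lower with estrogen plus progesterone than with placebo, and 4 to 6 under the alternatives. With 3 monkeys a group, SEs of 0.16 to 0.32 limit what the tested members can show.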

Other observations

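The named genes whose levels over the 12 arrays were most like those of the brighter DUSP1 probe set, among 9304 named genes, were SLC2A10 (r = 0.88), a glucose transporter family member, WASF3 (0.88), an actin regulator, S1PR3 (0.87), a sphingosine 1-phosphate receptor, MPZL2 (0.86), a cell adhesion protein, and SUMO2 (0.81), a protein modifier. They were picked for this likeness over arrays that include the comparison behind the choice of DUSP1, so their values are a description. S1PR3 read 7.14, 6.62 and 6.71 with estrogen plus progesterone, 6.93, 7.03 and 7.44 with estrogen and 6.88, 6.59 and 7.36 with progesterone, against 7.46, 7.79 and 7.32 with placebo. Its lowest placebo array lay below the highest estrogen and the highest progesterone array. This was not so for the brighter DUSP1 probe set, but it was for the dimmer one. SUMO2 read 11.01, 10.92 and 10.88 with estrogen plus progesterone, 11.03, 11.11 and 11.03 with estrogen and 11.18, 10.87 and 11.03 with progesterone, against 11.29, 11.37 and 11.36 with placebo, so here too placebo stood above the other 9 arrays. So it did for MPZL2, where the lowest placebo array read 6.71 and the highest hormone array, the second with progesterone, 6.65. It did not for SLC2A10, with 8.66 in the third placebo and 8.69 in the third progesterone array. Nor did it for WASF3, with 10.70 in the third placebo and 10.73 in the first estrogen plus progesterone array. The share of all tested probe sets was 0.265%, and these genes were picked for likeness to a probe set with this separation. Among the members, NR4A1 ranked 461st of the 9304 genes in likeness to DUSP1 by level, IER2 637th, JUNB 1543rd and FOS 4947th. On deviations from the group means NR4A1 ranked 5804th, IER2 1581st, JUNB 1269th and FOS 1661st.

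After subtraction of the group means the most alike genes were different ones: SIX2 (r = 0.93), SMIM10 (0.92), GLMP (0.92), TELO2 (0.91) and RUNX2 (0.89). SIX2 and RUNX2 are developmental transcription factors, GLMP is a lysosomal membrane protein and TELO2 is a cofactor in the assembly of PI3K-related kinases. Of the 5 genes most like DUSP1 by level, WASF3 ranked 58th by deviation and SUMO2 3353rd.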
